A study of Mus musculus with 6 samples.

Results

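The oligoadenylate synthetase (OAS) family was described in RNA-seq data of wild-type (WT) osteoclast precursors (OCPs) and OCPs without the long noncoding RNA lincRNA-EPS (KO). The 8 genes *Oas1a*, *Oas1b*, *Oas1c*, *Oas1g*, *Oas2*, *Oas3*, *Oasl1* and *Oasl2* were taken by gene name, and all 8 were found among the 57180 genes of the table. The family was chosen by its measured levels in KO against WT, so its fold changes in that comparison are given here as a description without a test. Bone marrow cells, which the labels call bone marrow-derived macrophages, came from WT C57BL/6 mice or from lincRNA-EPS knockout mice. Cultures of both genotypes received M-CSF, a macrophage growth factor, at 40 ng/ml for 24 h. The osteoclast-inducing cytokine RANKL was then added at 40 ng/ml for a further 48 h. There were 3 libraries of each genotype, labelled as independent replicates, and the age of the mice that gave the bone marrow was not given in the sources used here. No cell type-restricted deletion is named for the knockout, and WT and KO cultures received the same agents.

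OAS enzymes bind double-stranded RNA and join ATP into short chains called 2-5A. These chains are the second messenger of an antiviral pathway that limits translation in infected cells. Most OAS genes are interferon-stimulated: type I interferon signals through JAK1 and TYK2 to the complex ISGF3, which holds STAT2 and IRF9 and binds the interferon-stimulated response element (ISRE) of target promoters. In macrophages this programme also runs at a low tonic level without infection.

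All 8 genes lie on chromosome 5 in the GRCm38 annotation, in 2 clusters. *Oas2*, *Oas3* and the *Oas1* genes form 1 cluster, from *Oas2* at chr5:120730333-120749853 (minus strand) to *Oas1a* at chr5:120896256-120907521 (minus strand). Between them lie *Oas3* at chr5:120753098-120777661 (minus), *Oas1c* at chr5:120800194-120812514 (minus), *Oas1b* at chr5:120812635-120824163 (plus) and *Oas1g* at chr5:120876142-120887613 (minus). *Oasl2* at chr5:114896936-114912234 and its neighbour *Oasl1* at chr5:114923240-114937915, both on the plus strand, form the other cluster. The submitters' processing notes name GRCm39 for the counts, and positions here are instead on the older build of the annotation.

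The promoters were read because the ISRE is the element through which interferon signalling is known to reach this family. Promoter windows of 250 bases before to 50 bases after the start site were given by RefSeq on GRCm38.p6 for 6 of the 8 genes, and *Oas1b* and *Oas2* had no entry. The ISRE was searched on both strands as GAAA, any 2 bases and again GAAA, which 3.44% of the 32851 promoters of the same length hold. It was found in *Oas1a*, *Oas1g*, *Oas1c* and *Oas3*, and these letters were not in the windows of *Oasl1* and *Oasl2*. In *Oas1a*, *Oas1g* and *Oas1c* 2 overlapping matches made up 1 run of 16 bases with identical letters, found in 7 of the 32851 promoters. Counted from the start site, the run lies at positions -20 to -5 in *Oas1a* and -18 to -3 in *Oas1g*. In *Oas1c* it lies on the other strand, at -114 to -99. *Oas1b* starts 121 bases from *Oas1c* on the opposite strand, so the same copy lies at -22 to -7 of *Oas1b*. The 80 bases around each element are printed 5′ to 3′ on the strand of the gene named, with the matched letters in capitals, for *Oas1a* at chr5:120907526-120907605 (minus), *Oas1g* at chr5:120887614-120887693 (minus), *Oas1b* at chr5:120812555-120812634 (plus, read from the *Oas1c* entry) and *Oas3* at chr5:120777690-120777769 (minus).
Oas1a: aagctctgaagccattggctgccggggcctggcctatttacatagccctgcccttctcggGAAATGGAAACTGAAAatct
Oas1g: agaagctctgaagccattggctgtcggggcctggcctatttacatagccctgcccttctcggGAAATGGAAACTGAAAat
Oas1b: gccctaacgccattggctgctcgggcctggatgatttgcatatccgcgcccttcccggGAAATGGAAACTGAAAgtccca
Oas3: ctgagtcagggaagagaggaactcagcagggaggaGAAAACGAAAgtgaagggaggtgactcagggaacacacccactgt

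The related element EICE, searched as GGAA, any 2 bases and GAAA, was in 2.71% of all promoters and in none of the 6 windows. The STAT dimer element GAS, searched as TTCNNNGAA, was in 8.30% of all promoters. Among the 6 windows it was found in *Oas1a* alone, at -98 to -90. Of the other *Oas1* loci, *Oas1f* and *Oas1h* had a window, and neither held the ISRE letters. The relation of these letters to the levels in WT and KO was not tested.

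**Figure D1:**
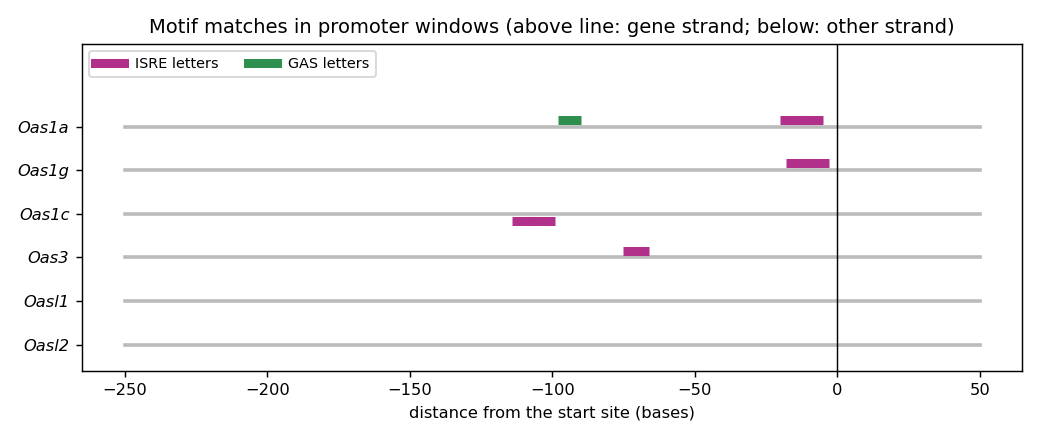
Matches of the ISRE and GAS letters in the promoter windows of 6 OAS genes. The x axis is the distance in bases from the start site, bars above each grey line lie on the strand of the gene and bars below it on the other strand. The ISRE bars of *Oas1a* and *Oas1g* end at -5 and -3, and *Oasl1* and *Oasl2* have no bar.

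The estimated counts of a library summed to between 17757351 and 19998611, and 3 counts, taken as the smallest measured level, were 0.150 to 0.169 CPM, counts scaled to the same library total. The targeted lincRNA-EPS, listed as *Ttc39aos1*, had 20, 37 and 41 counts in the WT libraries and 0 in each KO library. Of 13428 genes tested by edgeR's quasi-likelihood test, 1 was called lower in KO (0.00745%) and 0 higher, where a call needed a fold change above 1.3 with its adjusted p-value below 0.01. All 13 of 13 macrophage and OCP markers were present and summed to 21591 to 22529 CPM in WT and 22018 to 23461 CPM in KO, a sum of which *Lyz2* was the largest part. Single markers moved both ways: in every KO library *Csf1r*, *Adgre1* and *Itgam* were below all WT libraries, and *Ctsk*, *Dcstamp*, *Acp5* and *Calcr* above them. These were 3 and 4 of the 13 markers. Of the 13428 genes tested, 2530 (18.8%) had every KO library below every WT library, and 2264 had every KO library above. The 10 neutrophil markers summed to 1252 to 1430 CPM in WT and 1714 to 1988 CPM in KO, and the 7 markers of plasmacytoid dendritic cells, the main makers of type I interferon, to 7.44 to 9.01 and 10.4 to 11.4 CPM, with *Klk1* at 0 in all libraries. Of the 10 neutrophil markers 6, led by *S100a9*, *Ngp* and *S100a8*, were above WT in every KO library, beside 2264 of the 13428 genes tested. *Mpo* and *Elane* were below WT in every KO library, beside 18.8% of all genes tested, and *Ly6g* had at most 5 counts. The part of these cell markers in the OAS levels was not tested. The 8 T and B cell markers summed to 5.46 to 6.69 CPM in WT and 6.96 to 8.33 CPM in KO, the 6 erythroid markers to at most 0.739 CPM and the 7 stromal markers to at most 33.7 CPM. In bulk RNA, fewer cells of a type and less RNA per cell cannot be told apart.

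Of the 8 OAS genes, 6 were lower in each KO library than in every WT library, and *Oas1b* and *Oas1c* overlapped. Among all genes tested, 18.8% had every KO library below every WT library. The median log2 fold change of the 8 was -0.74, beside 0.01 for all genes tested. At the limits above 0 of the 8 were called by edgeR, while 6 had an unadjusted p-value under 0.05, where 13.2% of all genes were lower in KO by that measure. DESeq2's Wald test at the same limits called 5 of them lower in KO, out of the 6 for which it gave an adjusted p-value, since it gave none for *Oas1b* and *Oas1c*. Of the 10357 genes for which it gave an adjusted p-value, it called 72 lower in KO (0.695%) and 54 higher. Since the family was chosen on this comparison, these counts describe it and do not test it.

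*Oas3*, the largest synthetase and the one known to bind long double-stranded RNA, had 40.8, 48.1 and 48.4 CPM in WT replicates 1 to 3 and 26.1, 26.8 and 22.6 CPM in KO. Every KO library was below every WT library, and the gap between the genotypes was wider than the spread within either. The means were 45.8 ± 4.28 and 25.2 ± 2.25 CPM (SD, n = 3 each), with KO at 55.0% of WT and a log2 fold change of -0.86 (standard error 0.12). *Oas2*, whose protein carries a duplicated catalytic unit, had 18.8, 22.1 and 21.5 CPM in WT and 14.8, 11.8 and 12.2 CPM in KO. The genotypes again did not overlap, with KO replicate 1 nearest to WT. Its means were 20.8 ± 1.75 and 12.9 ± 1.66 CPM, a log2 fold change of -0.68 (standard error 0.13).

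*Oas1a* and *Oas1g* encode the catalytically active small synthetases of the mouse. *Oas1a* had 45.4, 48.1 and 51.4 CPM in WT and 31.2, 34.0 and 30.5 CPM in KO. No library crossed between the genotypes, and KO was at 66.1% of WT, a log2 fold change of -0.60 (standard error 0.10), the smallest difference among the 6 genes that did not overlap. *Oas1g* had 9.48, 11.4 and 11.6 CPM in WT and 3.96, 4.43 and 6.16 CPM in KO. Here KO was at 44.8% of WT, with a log2 fold change of -1.15 (standard error 0.19), the largest difference in the family in the main fit. Without KO replicate 2 *Oas1g* was at -1.09 and *Oasl2* at -1.10. The value of *Oas1g* also depends on how reads shared with *Oas1a* were divided. The promoter windows of *Oas1a* and *Oas1g*, which carry the 16 bases printed above, were 88.8% identical over 294 aligned bases.

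*Oas1b* is known as the flavivirus resistance gene, and C57BL/6 mice carry a truncated form of it. The table classes it as a protein-coding gene with loss of function. It had 1.65, 0.876 and 1.42 CPM in WT and 0.937, 1.32 and 1.83 CPM in KO, so the genotypes overlapped throughout, with a log2 fold change of 0.05 (standard error 0.34). *Oas1c*, one of the *Oas1* genes of uncertain activity, had 1.60, 1.64 and 1.99 CPM in WT and 1.04, 1.90 and 1.48 CPM in KO. These overlapped as well, with a log2 fold change of -0.25 (standard error 0.27). The value of *Oas1c* was -0.05 without KO replicate 1 and -0.47 without KO replicate 2. Both genes rested on few reads, 16 to 36 counts for *Oas1b* and 20 to 38 for *Oas1c*, and their 95% confidence intervals, -0.72 to 0.81 and -0.87 to 0.36, both include the fold change of *Oas1a*. The interval of *Oas1b* leaves out the fold changes of *Oas3*, *Oasl1*, *Oasl2* and *Oas1g*, and that of *Oas1c* leaves out those of *Oasl2* and *Oas1g*. The other 4 *Oas1* loci were at or under the 3-count floor, with 1 count of *Oas1d* in KO replicate 2, 1 count of *Oas1h* in WT replicate 3 and 0 counts of *Oas1e* and *Oas1f* in all 6 libraries.

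The OAS-like genes carry ubiquitin-like domains. OASL1 is known to hold back translation of *Irf7* mRNA and makes no 2-5A, while OASL2 has kept synthetase activity. *Oasl2* had 18.2, 18.0 and 20.6 CPM in WT and 8.38, 10.6 and 9.27 CPM in KO. All WT libraries were well above all KO libraries, with KO at 49.8% of WT and a log2 fold change of -1.01 (standard error 0.13). *Oasl1* had 5.47, 7.39 and 6.61 CPM in WT and 3.75, 4.08 and 3.36 CPM in KO. The genotypes did not overlap, although WT varied more for this gene. KO was at 57.5% of WT, a log2 fold change of -0.80 (standard error 0.17). The longest transcripts of *Oasl1* and *Oasl2* were 59.1% identical over 2030 aligned bases.

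**Figure D2:**
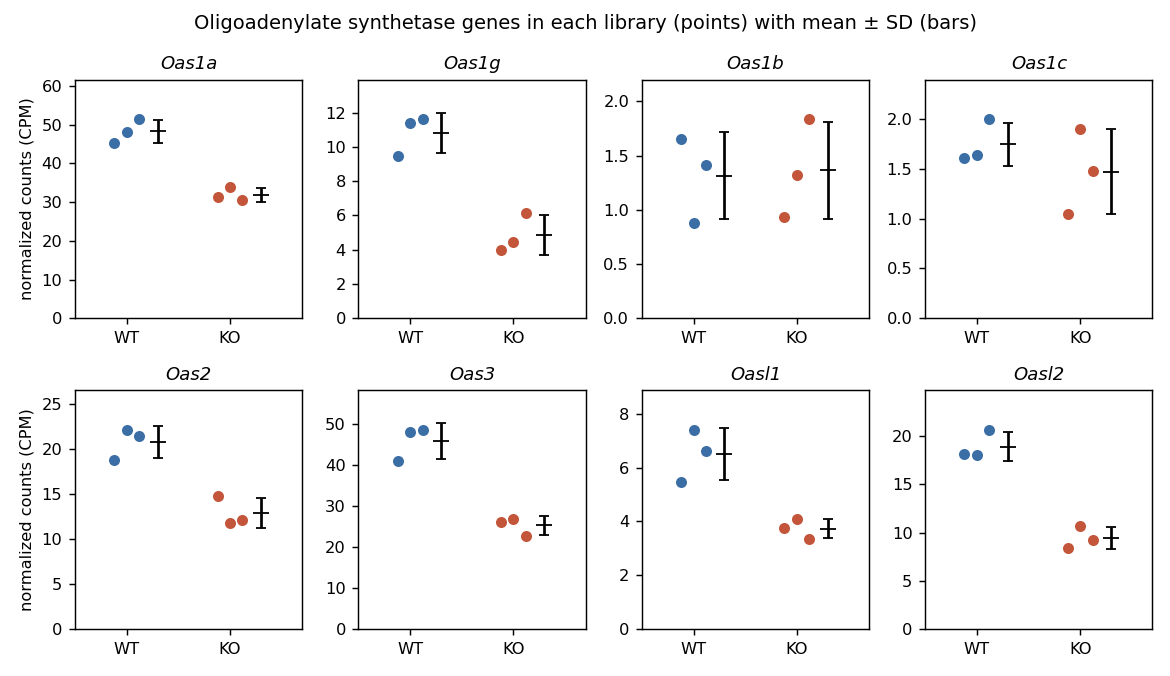
Normalized counts (CPM) of the 8 OAS genes in each WT (blue) and KO (red) library, with the mean and SD of the 3 libraries beside the points and each y axis starting at 0. In all panels except *Oas1b* and *Oas1c* the KO points lie below all WT points.

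The fold change over all genes ran with the GC content of the transcript, with r = -0.51 over 13176 genes. Genes are not independent replicates, and no p-value is given for it. The longest transcripts of the OAS genes held 49.4% (*Oasl2*) to 56.3% (*Oasl1*) GC, beside a median of 49.2% over all genes tested. With each library corrected for GC content the median of the 8 genes was -0.60, and DESeq2 called 5 lower in KO at the limits, again out of 6 with an adjusted p-value. By that fit 1.49% of the genes with an adjusted p-value, 161 of 10821, were lower in KO and 188 were higher. *Oasl1* went from -0.80 to -0.57 and *Oas3* from -0.86 to -0.70, while *Oasl2*, lowest in GC content, was at -0.998 after -1.01. The 6 genes that did not overlap were below 0 in all 18 other settings tried, as was *Oas1c*, and *Oas1b* was below 0 in 2 of the 18.

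**Figure D3:**
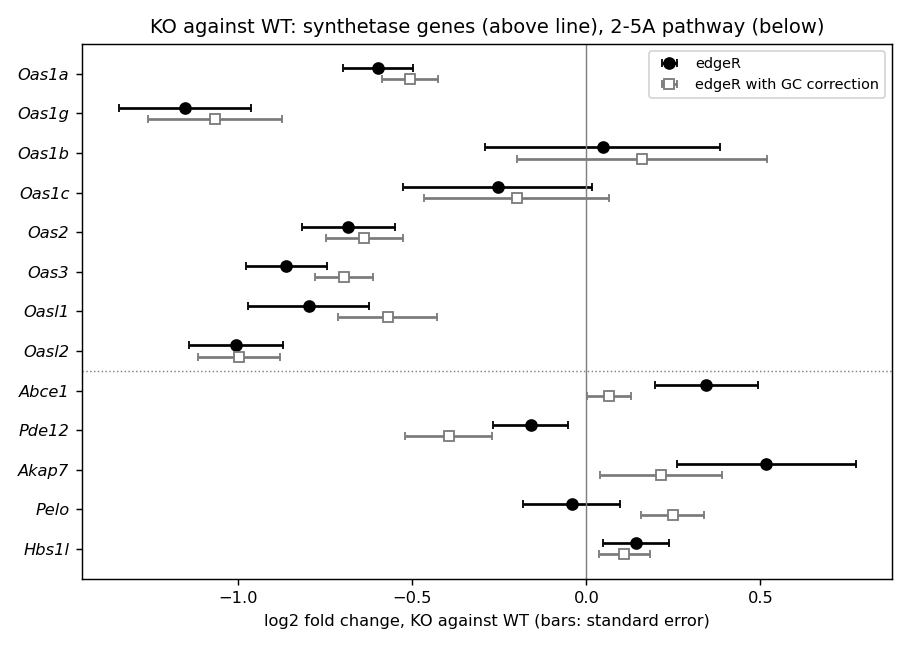
Log2 fold changes of KO against WT (x axis) with standard errors for the 8 OAS genes (above the dotted line) and 5 genes of the 2-5A pathway (below it), by edgeR (filled) and with a GC correction (open). *Oas1g* (-1.15) and *Oasl2* (-1.01) lie farthest below 0, and the pathway genes lie between *Pde12* (-0.16) and *Akap7* (0.52) by edgeR.

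Levels between genes were compared per length of the longest annotated transcript, as TPM, counts divided by transcript length and scaled to the same total in every library, computed here. *Oas1a* was highest in WT at 63.8 ± 3.74 TPM (SD, n = 3), followed by *Oas3* at 24.2 ± 2.46. *Oasl2* (15.1 ± 0.913), *Oas1g* (13.7 ± 1.55) and *Oas2* (13.1 ± 1.28) came next. The WT libraries of *Oas1g* overlapped those of both others, while every *Oasl2* library was above every *Oas2* library. Below them were *Oasl1* at 7.43 ± 1.24, then *Oas1c* at 1.90 ± 0.203 and *Oas1b* at 1.78 ± 0.512, which again did not differ beyond their spread. In KO *Oas1a* (39.5 ± 2.83) and *Oas3* (12.5 ± 1.51) kept the first places, and *Oas2* (7.64 ± 1.31), *Oasl2* (7.03 ± 0.734) and *Oas1g* (5.67 ± 1.12) lay close together. With the length of all annotated exons, a choice made after the data were seen, *Oas2* preceded *Oas1g* and *Oasl2* in both genotypes, and the first places were as before.

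Summed over the 8 genes, the level per length was 129, 147 and 147 TPM in WT and 81.2, 82.7 and 74.7 TPM in KO. WT was above KO in every library, with means of 141 ± 10.2 and 79.5 ± 4.25 (SD, n = 3 each). *Oas1a* made up 44.5% to 46.1% of this sum in WT and 48.6% to 50.4% in KO. The share of *Oas1g* was at least 9.20% in each WT library and 6.01%, 6.27% and 9.32% in the KO libraries, so its ranges met only through a single KO library.

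*Oas1a* and *Oas1g* share reads. Their longest transcripts were 97.5% identical over 1860 aligned bases, and 57.6% of the 50-base words of *Oas1a* also occur in *Oas1g*. In *Oas1b* only 0.708% of the *Oas1a* words and 1.03% of the *Oas1g* words occur. Their estimated counts were not whole, for example 904.82 and 189.18 in WT replicate 1, whereas the sum of the pair was whole in each library. The sum was 1094, 1087 and 1200 counts in WT and 676, 668 and 720 in KO, so it does not depend on how reads were divided. The fold change of this sum was -0.69 on the log2 scale (standard error 0.098), between the values of the 2 genes. *Oas1g* took 17.3%, 19.1% and 18.5% of the sum in WT and 11.2%, 11.5% and 16.7% in KO, and the separate values of the pair are uncertain to the extent that this division is. All 8 *Oas1* loci summed to 1159, 1133 and 1266 counts in WT and 714, 725 and 785 in KO, a log2 fold change of -0.65 (standard error 0.10).

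The 5 genes of the 2-5A pathway list, made of genes linked to 2-5A breakdown and of ribosome recycling and rescue factors, were centred on a log2 fold change of 0.14 (median). Of these 0 passed the limits in either direction, and 1 had an unadjusted p-value under 0.05, higher in KO, a measure met by 13.0% of all genes. That gene was *Abce1*, a ribosome recycling factor, with 176 ± 23.2 CPM in WT and 224 ± 39.9 CPM in KO (SD, n = 3 each). Its KO libraries were all above its WT libraries, with a log2 fold change of 0.34 (95% confidence interval 0.01 to 0.68, adjusted p = 0.182 by edgeR). With the GC correction it was 0.07, and without KO replicate 3 it was 0.19. *Pde12* and *Akap7* are both linked to the breakdown of 2-5A. *Pde12* had a log2 fold change of -0.16 (95% confidence interval -0.40 to 0.08) and *Akap7* of 0.52 (standard error 0.26), with adjusted p = 0.347 and 0.225 by edgeR. *Pelo* and *Hbs1l*, which free stalled ribosomes, were at -0.04 (-0.36 to 0.27) and 0.14 (-0.07 to 0.36). *Akap7* overlapped between the genotypes and was at 0.19 without KO replicate 3. With each library left out in turn *Pde12* ranged from -0.20 to -0.08. With the GC correction *Akap7* was at 0.21, *Pde12* at -0.40 and *Pelo* at 0.25.

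**Figure D4:**
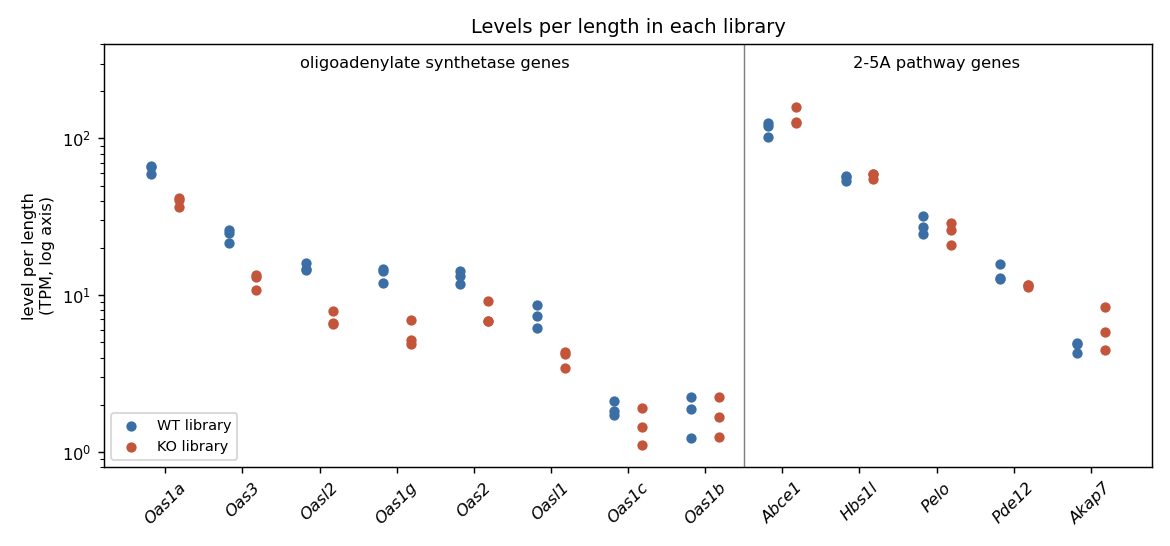
Levels per length of the longest transcript (TPM, on a log axis) for the 8 OAS genes (left) and 5 genes of the 2-5A pathway (right). Each point is a WT (blue) or KO (red) library. *Oas1a* and *Oas3* are highest of the family in both genotypes, and *Oas1b* and *Oas1c* are lowest.

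Receptors, adaptors and kinases of nucleic acid sensing work beside the OAS enzymes. Of the 14 genes on the list, most of them of double-stranded RNA sensing and 2 of DNA sensing (*Cgas* and *Sting1*), 0 passed the limits by edgeR, 12 had a log2 fold change below 0 and the median was -0.22. An unadjusted p-value under 0.05 was reached by 5 of the 14, all lower in KO, beside 13.2% of all genes tested. These were *Adar*, which edits double-stranded RNA (-0.48, standard error 0.11), *Zbp1*, a sensor of Z-form nucleic acid (-0.87, standard error 0.21), *Dhx58* (-0.45) and *Rigi* (-0.37) of the RIG-I-like receptors, and the kinase gene *Ikbke* (-0.34), each with an adjusted p = 0.147 by edgeR. *Zbp1* rested on few reads, at 2.25 CPM in WT and 1.22 CPM in KO (means), and DESeq2 gave it no adjusted p-value. Over the other settings the value nearest 0 was -0.20 for *Adar*, -0.30 for *Dhx58* and -0.18 for *Ikbke*. With the GC correction and DESeq2 1 of the 13 given an adjusted p-value was lower in KO at the limits, beside 1.49% of all genes given one. *Eif2ak2*, which encodes the kinase PKR, was at 52.0 ± 6.06 CPM in WT and 52.4 ± 6.91 CPM in KO, a log2 fold change of 0.01. *Ifih1* (MDA5, -0.16), *Tlr3* (-0.01), *Cgas* (-0.03) and *Sting1* (-0.01) overlapped between the genotypes. With the GC correction *Ifih1* was at -0.37, *Tlr3* at -0.30, *Eif2ak2* at -0.16 and *Cgas* at -0.14.

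The receptor and factors through which interferon reaches the OAS promoters had a median of -0.39 on the log2 scale over 10 genes, with 9 below 0, and 0 past the limits by edgeR. With the GC correction the median of these genes was -0.28, with 8 below 0. DESeq2 called 1 of the 8 given an adjusted p-value, beside 0.695% of all genes given one. Every KO library was below every WT library for 7 of the 10, beside 18.8% of all genes tested. An unadjusted p-value under 0.05 was reached by 6, all lower in KO, beside 13.2% of all genes. *Irf7*, the interferon-induced factor that amplifies interferon production, had 16.4, 16.9 and 17.8 CPM in WT and 7.81, 8.97 and 7.74 CPM in KO. The genotypes were far apart against their spread, at -1.06 on the log2 scale with a standard error of 0.12 (adjusted p = 0.0635 by edgeR). Within ISGF3, *Stat2* was at -0.46 (standard error 0.12, adjusted p = 0.147 by edgeR) and *Irf9* at -0.33 (standard error 0.11, adjusted p = 0.151 by edgeR). The kinase gene *Tyk2* (-0.52), the feedback inhibitor *Usp18* (-0.73) and the receptor chain *Ifnar1* (-0.25) made up the rest of the 6, while the other chain, *Ifnar2*, was at 0.07 with its KO libraries above WT. With the GC correction *Irf7* was at -0.87, *Stat2* at -0.37, *Irf9* at -0.29 and *Tyk2* at -0.28. Over the other settings the value nearest 0 was -0.30 for *Stat2* and -0.16 for *Tyk2*. Of 20 interferon genes read as possible ligands, among them *Ifnb1* and *Ifng*, 19 had 0 counts in all 6 libraries, and *Ifnk* had 1 count in KO replicate 2. A count of 0 allows up to 3 counts in a library, so ligand transcripts were not detectable at this depth.

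Other interferon-stimulated effectors ranged from -0.89 to 0.14 on the log2 scale. Of 31 listed genes 28 were tested, 0 passed the limits by edgeR. DESeq2 called 2 of the 19 effectors for which it gave an adjusted p-value, beside 0.695% of all genes given one. The median log2 fold change was -0.18, with 21 below 0, and with the GC correction it was -0.32, with 23 below 0, nearer to the -0.60 of the OAS genes in that fit. Every KO library was below every WT library for 11 of the 28, beside 18.8% of all genes tested. An unadjusted p-value under 0.05 was reached by 8, all lower in KO, beside 13.2% of all genes. With the GC correction edgeR called 1 of the 28 lower in KO at the limits, beside 0.0149% of all genes tested, and 1 with a correction for GC and length, beside 0.0298%. DESeq2 with the GC correction called 4 of the 22 given an adjusted p-value, beside 1.49% of all genes given one. *Parp14*, a mono-ADP-ribosyltransferase, was at 85.0 ± 2.75 CPM in WT and 49.8 ± 3.22 CPM in KO, a log2 fold change of -0.77 (adjusted p = 0.0635 by edgeR). *Ifi27l2a* (-0.89), *Isg15*, a ubiquitin-like modifier (-0.75), *Cmpk2*, a mitochondrial nucleotide kinase (-0.73), *Ddx60* (-0.62) and *Slfn5* (-0.32) had adjusted p-values of 0.145 to 0.147 by edgeR. The dynamin-like genes *Mx1* (0.00) and *Mx2* (0.13), and *Ifit2* (-0.05) and *Ifitm3* (0.04), overlapped between WT and KO, and *Ifit2* was at -0.28 with the GC correction. *Mx2* rested on few reads, with means of 0.66 CPM in WT and 0.72 CPM in KO and a standard error of 0.38. *Mx1* was at 2.52 CPM in both genotypes. The difference between these lists and the OAS family was not tested.

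**Figure D5:**
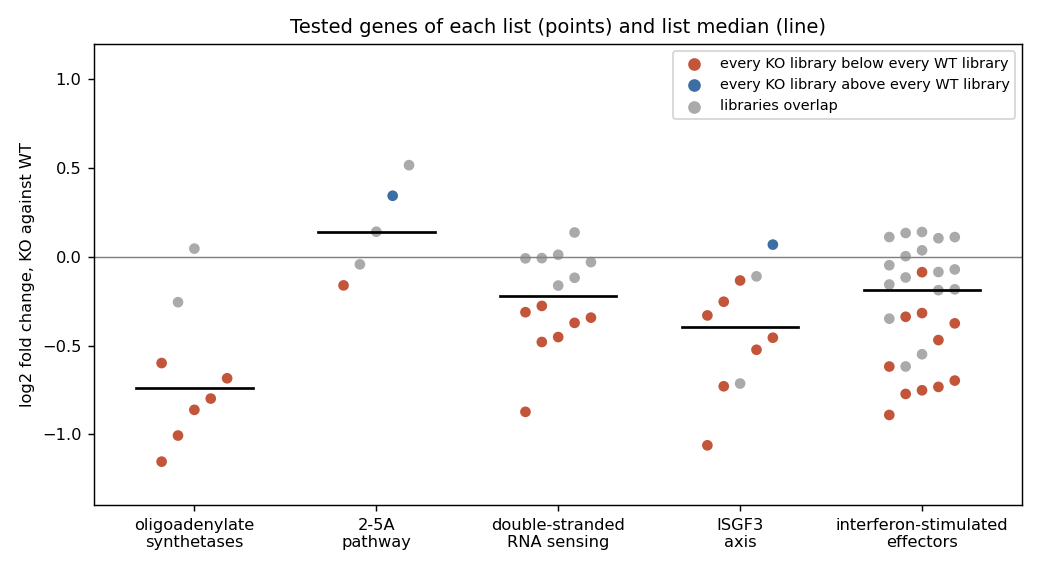
Log2 fold changes of KO against WT (y axis) for the tested genes of the OAS family and 4 lists of related genes. Red points have every KO library below every WT library, blue points the reverse, grey points overlap, and the black line is the median. The medians are -0.74 for the OAS genes, 0.14 for the 2-5A pathway, -0.22 for the sensing list, -0.39 for the ISGF3 axis and -0.18 for the effectors.

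Across the 6 libraries the 8 genes were averaged as log2 CPM, each centred on its own mean. The average was 0.26, 0.30 and 0.44 in WT and -0.47, -0.25 and -0.28 in KO. Among the 12303 genes of at least 1 CPM, *Oasl2* ran closest to this average (r = 0.99 over 6 libraries), which it helps to make up. *Oas1b* (r = 0.06) and *Oas1c* (r = 0.66) ran least with it, at places 5854 and 1888 of the 12303. Outside the family the closest genes were *Cndp2*, *Slc9a9*, *Ogfr* and *Arnt* (each r = 0.99) and *Dtx3l* (r = 0.98). The first 4 of these differed little in size, with log2 fold changes of -0.14 to -0.37. *Dtx3l*, a ubiquitin ligase gene, had 25.2, 26.8 and 26.2 CPM in WT and 4.53, 6.10 and 5.75 CPM in KO. The split between the genotypes is shared by these 5 genes and by the average, and no test was made on the correlations.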

How the data were processed

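RNA was sequenced from 3 WT and 3 KO cultures of OCPs, 1 library each. The authors deposited estimated counts per gene without normalization. The submitters' processing notes name fastp, HISAT2, StringTie, RSEM and the build GRCm39, without versions. The library kit was stranded, and the strand setting of the counting is not given in the sources used here. *Oas1c* and *Oasl1* each overlap an annotated antisense gene, by 227 and 38 exonic bases. Between 25.1% and 26.6% of detected genes had values that were not whole, and values were rounded for the count tests. The columns with the authors' mean per genotype were not used.

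R 4.3.3 was used with edgeR 4.0.16 (filterByExpr, TMM, glmQLFit with legacy = FALSE, glmQLFTest), DESeq2 1.42.0 and limma 3.58.1, fitted on all genes with Benjamini-Hochberg adjustment. The fits were tested on simulated data first. With 3 libraries in each genotype the smallest p-value of an exact two-sided permutation test is 0.1, and none was run. Floors cover counting error only. CPM of cell markers were scaled by library totals, other CPM also by TMM. No pair of replicates was within sampling noise. The chi-square per degree of freedom was 3.77 to 20.8 between WT libraries and 39.2 to 69.3 between KO libraries. Replicates are labelled as biologically independent, and p-values measure the spread between these cultures.

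The OAS genes and all lists were chosen with earlier results of these data known. A gene of the 2-5A pathway and another of the ISGF3 axis are not reported here. Genes named from a list had an unadjusted p-value under 0.05, at most the 6 smallest, besides *Irf7*, *Irf9* and *Stat2*, and the others named beside them, with *Mx1*, *Mx2*, *Ifit2*, *Ifitm3* and the sensors that overlapped, were picked after their values were seen. GENCODE M21 on GRCm38, with a transcript for 51884 of the deposited gene identifiers, gave positions, GC content and lengths. The GC correction fits a natural spline of 5 degrees of freedom to each library and enters as offsets. Alternatives were DESeq2's size factors, library size alone, DESeq2's Wald test, edgeR's legacy test, limma-voom, other filters on low counts, the replicate number as a block, GC and length corrections, other limits and each library left out in turn.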

Additional observations from a re-analysis of the deposited data

How the results depend on the processing

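Under the limits of the main test 0 of the OAS genes and 0 genes of each list were called lower in KO. DESeq2's Wald test called 5 OAS genes, 1 gene of the ISGF3 axis and 2 effectors, beside 0.695% of the genes given an adjusted p-value. The GC correction called 1 effector, as did the GC and length correction, and 0 with the replicate block added to the GC correction, where the shares of all genes called lower were 0.0149%, 0.0298% and 0.00745%. The GC correction with DESeq2 called 5 OAS genes, 1 gene of the sensing list, 1 gene of the ISGF3 axis and 4 effectors, beside 1.49% of all genes given an adjusted p-value (161 of 10821). An unadjusted p-value under 0.05 with no fold change limit was met by 6 OAS genes, 5 genes of the sensing list, 6 genes of the ISGF3 axis and 8 effectors, all lower in KO, beside 13.2% of all genes, and by 1 of 5 genes of the 2-5A pathway, higher in KO, beside 13.0% of all genes. The median log2 fold change of the OAS genes, -0.74, was -0.60 under the GC correction alone, with the replicate block, with DESeq2 and with length. The summed *Oas1* loci, at -0.65, did not pass the limits in the main fit. They passed with DESeq2 (-0.65), with GC correction and DESeq2 (-0.59) and with GC and length correction (-0.69), and not in the other 15 settings. For these corrections the sum took the mean GC content and mean log length of its loci. Since the family was chosen on this comparison, these results describe the sum and do not test it. The cause of these changes was not tested.

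Replicate numbers were no evidence of pairing: the deviations of same-numbered WT and KO libraries correlated at -0.19, 0.06 and 0.14. With the number as a block the median of the OAS genes was -0.74, and 0 were called. The block without a GC correction changed no call. The 3 libraries per genotype and the 16 to 38 counts of *Oas1b* and *Oas1c* limit what could be seen.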

Other observations

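The 16 bases shared by the promoter windows of *Oas1a*, *Oas1c* and *Oas1g* also occur in those of 2 other genes, *Apol9a* and *Apol9b*, which encode interferon-inducible apolipoproteins. *Apol9a* had 0 counts in all 6 libraries. *Apol9b* had 0, 1 and 4 counts in the WT libraries and 0, 1 and 3 in the KO libraries. Neither passed the expression filter.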
